A study of Mus musculus with 2 samples.

Results

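Integrins are the cell-surface receptors that hold cells to the extracellular matrix, and laminins and nidogens are components of the basement membrane that integrins grip. The integrin, laminin and nidogen genes were taken from the table of all genes by symbol, as protein-coding genes named Itga, Itgb, Lama, Lamb, Lamc or Nid with a chain number or letter. This gave 39 genes of 22379 protein-coding genes and 37309 genes in all, made up of 26 integrin genes, 11 laminin genes and 2 nidogen genes. Their transcripts were measured by RNA sequencing in intestinal subepithelial myofibroblasts (ISEMFs), the mesenchymal cells that lie directly beneath the gut epithelium and its basement membrane. The supportive ISEMFs were grown from the small intestine of neonatal C57BL/6 mice. The non-supportive ISEMFs were grown from the small intestine of adult C57BL/6 mice. Supportive and non-supportive refer to the growth of intestinal crypt epithelium in co-culture without the added growth factor R-spondin, where the non-supportive cells gave only weak support. The comparison asks how the matrix receptors and basement membrane chains of these populations differed. Each population was a cultured isolate and was sequenced as 1 library, so no difference has a replicate check, no test between populations was possible, and supportiveness and the age of the mice cannot be told apart. How often the cells had been passaged before sequencing is not stated in the sources used here. The deposited data name the libraries with the codes P16 for supportive and P3 for non-supportive ISEMFs, which no source explains, and a difference in passage, if there was one, cannot be told apart from the population.

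Each integrin is a heterodimer of an alpha and a beta chain, and the alpha chain largely sets the ligand: collagens, laminins, or proteins such as fibronectin that carry the short RGD motif. Each laminin is a trimer of an alpha, a beta and a gamma chain that is assembled inside the cell. The alpha chain carries the main binding sites for integrins and dystroglycan, and nidogens link the gamma chain of most laminins to the collagen IV network. In the gut, the laminin chains of the epithelial basement membrane come in part from the epithelium and in part from the mesenchyme beneath it.

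Levels are given as RPKM, the reads of a gene scaled to the length of its exons and to the size of the library. A gene was counted as expressed where either library reached an RPKM of 1, and as different at a 2-fold or larger ratio on the log2(RPKM + 0.1) scale. Ratios carry a 95% exact Clopper-Pearson interval from the reads, which covers counting error only and compares these libraries rather than the populations. The supportive library held 50674472 reads on genes and the non-supportive library 49615497. Mitochondrially encoded genes took 14.6% and 7.85% of these reads. All 7 myofibroblast and smooth muscle markers were expressed in these cells, with Acta2 at an RPKM of 908 and 1410 and vimentin at 325 and 407, in supportive and non-supportive ISEMFs in that order. Desmin, Myh11 and Cnn1 were at least 2-fold lower in supportive ISEMFs. No endothelial marker of 5 was expressed, and 1 epithelial marker of 8 was (Krt20, with 11 and 419 reads). All 6 fibroblast markers were expressed, 4 higher and 1 lower in supportive ISEMFs, and 2 of 5 neuron and glia markers were (Tubb3 and S100b).

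The promoters of 4 genes on which the results turn are printed first: Itga11 and Lama2 are the expressed integrin and laminin with the largest ratio in favor of supportive ISEMFs, and Itgb1 and Nid1 are the most abundant integrin and nidogen, both lower there. The windows are from RefSeq (build GRCm38.p6), read 5′ to 3′ on the gene's strand, and run from 250 bases before the start of transcription to 50 bases after it. Capitals mark the motifs found. Itga11 lies at chr9:62677605-62677904 on the plus strand, Lama2 at chr10:27616893-27617192 on the minus strand, Itgb1 at chr8:128685404-128685703 on the plus strand and Nid1 at chr13:13437352-13437651 on the plus strand.
Itga11: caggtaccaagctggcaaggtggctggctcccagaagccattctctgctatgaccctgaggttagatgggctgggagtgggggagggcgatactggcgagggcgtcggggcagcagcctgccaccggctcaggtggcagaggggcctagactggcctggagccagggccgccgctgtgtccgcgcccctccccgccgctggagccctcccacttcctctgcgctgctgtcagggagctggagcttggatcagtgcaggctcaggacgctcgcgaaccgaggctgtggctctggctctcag
Lama2: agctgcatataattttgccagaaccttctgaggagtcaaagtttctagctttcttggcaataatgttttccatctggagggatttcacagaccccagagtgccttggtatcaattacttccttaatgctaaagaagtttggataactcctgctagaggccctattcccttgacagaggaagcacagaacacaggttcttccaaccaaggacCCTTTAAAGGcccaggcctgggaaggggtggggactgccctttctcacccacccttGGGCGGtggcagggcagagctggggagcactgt
Itgb1: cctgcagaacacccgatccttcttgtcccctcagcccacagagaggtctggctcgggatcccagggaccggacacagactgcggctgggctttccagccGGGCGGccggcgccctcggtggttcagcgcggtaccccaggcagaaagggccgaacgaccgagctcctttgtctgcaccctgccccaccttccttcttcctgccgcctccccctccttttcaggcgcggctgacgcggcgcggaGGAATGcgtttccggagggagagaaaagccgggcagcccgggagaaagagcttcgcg
Nid1: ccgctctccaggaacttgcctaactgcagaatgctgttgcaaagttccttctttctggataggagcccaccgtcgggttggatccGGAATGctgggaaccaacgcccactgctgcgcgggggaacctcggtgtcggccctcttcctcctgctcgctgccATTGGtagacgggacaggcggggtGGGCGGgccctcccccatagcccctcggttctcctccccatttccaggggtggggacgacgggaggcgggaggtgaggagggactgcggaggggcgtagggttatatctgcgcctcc
Both strands were searched for the GC box (GGGCGG), the CCAAT box (CCAAT), the TATA box (TATAAA), the AP-1 element (TGANTCA), the TEAD element (GGAATG) and the CArG box, the element bound by serum response factor in smooth muscle genes. In the printed windows no motif found overlaps another, and a motif on the other strand appears as its reverse complement. The Itga11 window held none of them. Lama2 held a CArG box starting at position -39 from the start and a GC box at 18. Itgb1 held a GC box at -151 and a TEAD element at -7. Nid1 held a TEAD element at -165, a CCAAT box at -91 and a GC box at -67. The Itga11, Itgb1 and Nid1 windows held 16, 27 and 20 CpG dinucleotides, and the Lama2 window held 1. The median was 7 over all windows and 12 over the windows of the integrin, laminin and nidogen genes.

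Of the 39 genes, 24 had a promoter window, and these included 6 of the genes at least 2-fold higher in supportive ISEMFs and 5 of those at least 2-fold lower. A GC box was in 35.7% of all 32851 windows, in 12 of the 24 genes, in 4 of the 6 higher genes (Itga4, Itgb5, Lama2 and Lama5) and in 5 of the 5 lower genes (Itga5, Itgam, Itgb1, Lamb1 and Nid1). A CCAAT box was in 37.4% of all windows and in 5 of the 24 genes. A TEAD element was in 14.7% of all windows and in 4 of the 24 genes, of which Itgb1 and Nid1 were among the lower genes. The AP-1 element was in 7.81% of all windows and in 3 of the 24 genes, the TATA box in 13.6% and in 0 of them, and the CArG box in 1.63% and in Lama2 and Itgb6. These counts describe letters in a window and were not tested.

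Most integrin, laminin and nidogen genes that these cells expressed differed between the libraries. Of the 39 genes, 38 had at least 1 read and 23 were expressed. Among the 23, 15 differed by at least 2-fold, which is 65.2% beside 18.2% of all 9110 expressed protein-coding genes. There were 8 genes higher in supportive ISEMFs (Lama2, Itga11, Lama5, Nid2, Lama1, Itga4, Itga1 and Itgb5), where 9.25% of all expressed protein-coding genes were higher. There were 7 genes lower, among them Itgam, Itga6, Itga5, Nid1, Itgb1 and Lamb1, where 8.98% of all were lower. The differences ran in both directions, so the median log2 ratio of the 23 genes was 0.13 beside -0.07 for all expressed protein-coding genes, while the median absolute log2 ratio was 1.28 beside 0.41. Of the 23 genes, 10 reached the limit in 1 library alone, which favors a large ratio, and among the 13 that reached it in both libraries 7 differed by 2-fold (3 higher and 4 lower), or 53.8% beside 11.8% of all protein-coding genes with that level in both. The counting interval of the ratio excluded 1 for 22 of the 23 genes, with Itgb3 the exception. All 39 genes together took 0.830% of the reads on genes in supportive ISEMFs and 1.62% in non-supportive ISEMFs.

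**Figure D1:**
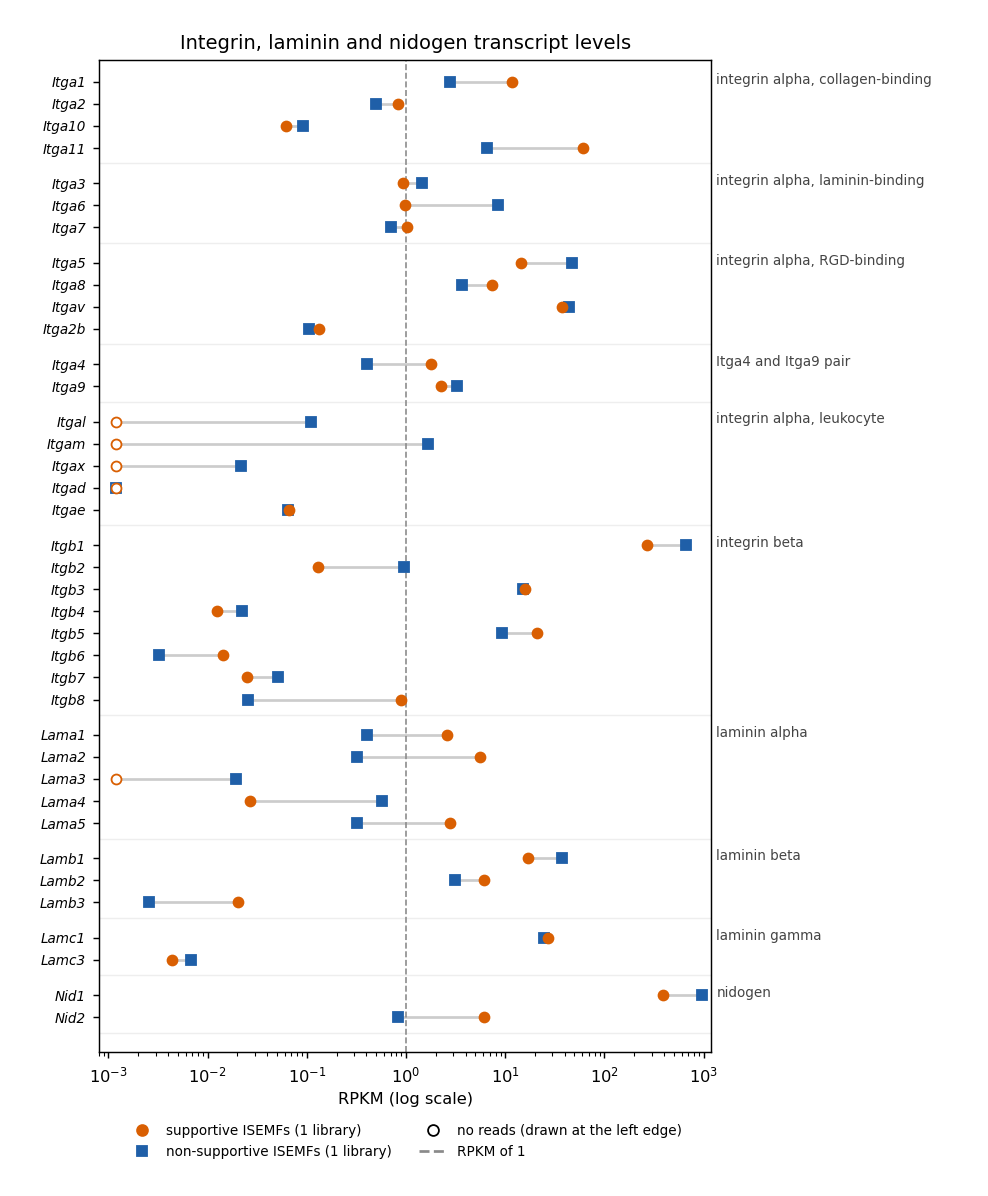
RPKM of 38 of the 39 genes on a log axis, grouped by role, in supportive (circles) and non-supportive (squares) ISEMFs, with 1 library each, a dashed line at an RPKM of 1 and open symbols at the left edge for 0 reads. Nid1 and Itgb1 stand at the top of the range in both libraries, and Itgal, Itgam, Itgax, Itgad and Lama3 had no reads in supportive ISEMFs.

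The collagen receptors were the integrin group most in favor of supportive ISEMFs. Itga11, a fibroblast receptor for fibrillar collagens on chr9:62525633-62631789 (mm9, plus strand), had an RPKM of 61.3 in supportive and 6.53 in non-supportive ISEMFs, a 9.38-fold higher level (8.99 to 9.79). Itga1, which prefers collagen IV of the basement membrane, had 11.9 and 2.77, a ratio of 4.28 (4.05 to 4.53). Both expressed genes of this group were therefore above the 2-fold line. The remaining collagen-binding chains were below an RPKM of 1 in both libraries. Itga2, known as a collagen receptor of platelets and epithelium, had 0.840 and 0.499. Itga10, a chain of cartilage cells, had 32 and 46 reads. Summed over the 4 genes, the collagen-binding alpha chains had an RPKM of 74.0 and 9.89, a 7.48-fold difference.

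Of the 3 laminin-binding alpha chains, Itga6 was lower in supportive ISEMFs and the others were within 2-fold. Itga6, a laminin receptor best known from epithelium and stem cells on chr2:71583673-71696473 (mm9, plus strand), had an RPKM of 0.983 in supportive and 8.54 in non-supportive ISEMFs, an 8.69-fold lower level in supportive cells (8.10 to 9.32). Itga3, another laminin receptor, had 0.924 and 1.45. Itga7, the laminin receptor of muscle, had 1.02 and 0.703. Itga3 and Itga7 lay on opposite sides of 1, and all 3 chains were near the expression limit in supportive ISEMFs. The sum of the 3 genes was 2.92 in supportive and 10.7 in non-supportive ISEMFs, 3.66-fold lower, and Itga6 made up most of the latter. The ratio of the Itga11 level to the Itga6 level was 62.3 in supportive ISEMFs and 0.765 in non-supportive ISEMFs, so a collagen receptor led in the former and a laminin receptor was slightly ahead in the latter.

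Among the RGD-binding chains, the fibronectin receptor was lower in supportive ISEMFs and the others were less than 2-fold apart. Itga5, the alpha chain of the classical fibronectin receptor on chr15:103174720-103197194 (mm9, minus strand), had an RPKM of 14.4 and 47.4, 3.28-fold lower (3.17 to 3.39). Itgav, which joins several beta chains to bind vitronectin and latent TGF-beta, had 37.5 and 44.4, a ratio of 0.846. Itga8, a receptor for nephronectin in mesenchyme and smooth muscle, had 7.30 and 3.70, a ratio of 1.97 (1.88 to 2.07) that sits at the 2-fold line and passed it under 4 other scalings of the libraries. Itga5 was therefore below Itgav in supportive ISEMFs and close to it in non-supportive ISEMFs, with Itga5 over Itgav at 0.385 and 1.07. Itga2b, the platelet fibrinogen receptor, was close to absent with 75 and 58 reads.

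Itga4 and Itga9, which bind Vcam1 and fibronectin or tenascin and osteopontin, did not move together. Itga4 had an RPKM of 1.78 in supportive and 0.408 in non-supportive ISEMFs, 4.36-fold higher (3.99 to 4.76). The exon length of Itga4 in the table is 1.58 times that of the GENCODE vM1 annotation, which for the same reads scales its RPKM alike in both libraries. Itga9 had 2.25 and 3.30, a ratio of 0.680 (0.634 to 0.729).

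Of the leukocyte integrins, Itgam, Itgal and Itgax had reads only in the non-supportive library, while Itgae was alike in both libraries. Itgam, the alpha chain of the macrophage and neutrophil receptor Mac-1 on chr7:135206154-135271674 (mm9, plus strand), had 0 reads in supportive ISEMFs, which allows an RPKM of up to 0.00458 at 3 reads, and 1070 reads in non-supportive ISEMFs, an RPKM of 1.68. That puts its level in supportive ISEMFs at least 367-fold lower. Itgal, the alpha chain of the lymphocyte receptor LFA-1, had 0 and 56 reads, at least 19.2-fold lower. Itgax had 0 and 7 reads, Itgad had 0 in both libraries, and Itgae, an intraepithelial lymphocyte chain, had 22 and 21. Itgb2, the beta chain shared by Itgal, Itgam, Itgax and Itgad, had 42 and 302 reads, which is an RPKM of 0.129 and 0.956 and 7.40-fold lower in supportive cells (5.35 to 10.5), but below the expression limit. With GENCODE vM1 exon lengths, Itgb2 reached 1.42 in non-supportive ISEMFs and passed that limit. Itgam, Itgax and Itgad lie next to each other on chromosome 7 in mm9, with gaps of 1.39 and 3.72 kb, and Itgal lies 728 kb before Itgam.

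Like Itgam, Itgal and Itgb2, the expressed macrophage and leukocyte markers were lower in supportive ISEMFs. Of 10 such markers, 8 were expressed, and all 8 were at least 2-fold lower in supportive ISEMFs, beside 8.98% of all expressed protein-coding genes. Only Lyz2 and Cd53 reached the expression limit in both libraries. The other expressed markers reached it in the non-supportive library alone, so the limit bears on their common direction. The RPKM summed over the 10 markers was 9.47 in supportive and 128 in non-supportive ISEMFs. Ptprc (CD45), Tyrobp, Emr1 (F4/80) and Aif1 had 0 reads in supportive ISEMFs, beside 879, 1174, 622 and 60 reads in non-supportive ISEMFs. The other markers had reads in both libraries, among them Lyz2 (592 and 6629), Cd53 (522 and 1093) and Cd68 (51 and 715). The part of the marker-bearing cells in the leukocyte integrin result was not tested. In cultured cells sequenced in bulk, fewer cells of a type and less RNA per cell cannot be told apart.

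Most beta chain transcripts came from Itgb1, the partner of 12 alpha chains. Itgb1, on chr8:131209554-131257100 (mm9, plus strand), had an RPKM of 272 in supportive and 658 in non-supportive ISEMFs, 2.42-fold lower (2.41 to 2.44). It ranked 38 and 13 among protein-coding genes by RPKM. Itgb3, which joins Itgav in the vitronectin receptor, had 15.7 and 15.2, a ratio of 1.03 whose interval (0.998 to 1.07) includes 1. Itgb5, which also joins Itgav, had 21.1 and 9.33, 2.26-fold higher (2.16 to 2.37). Per length, Itgb3 over Itgb5 was 0.742 in supportive and 1.63 in non-supportive ISEMFs, while by reads Itgb3 was ahead in both, with 6664 and 6271 reads beside 6416 and 2756 for Itgb5. Itgb8, which joins Itgav to activate latent TGF-beta, had 789 and 22 reads, an RPKM of 0.884 and 0.0254, and was 34.9-fold higher (22.9 to 55.9) though under the expression limit. The remaining beta chains had few reads, with 8 and 14 for Itgb4 of the epithelial hemidesmosome, 9 and 2 for the epithelial Itgb6, and 5 and 10 for the lymphocyte chain Itgb7.

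**Figure D2:**
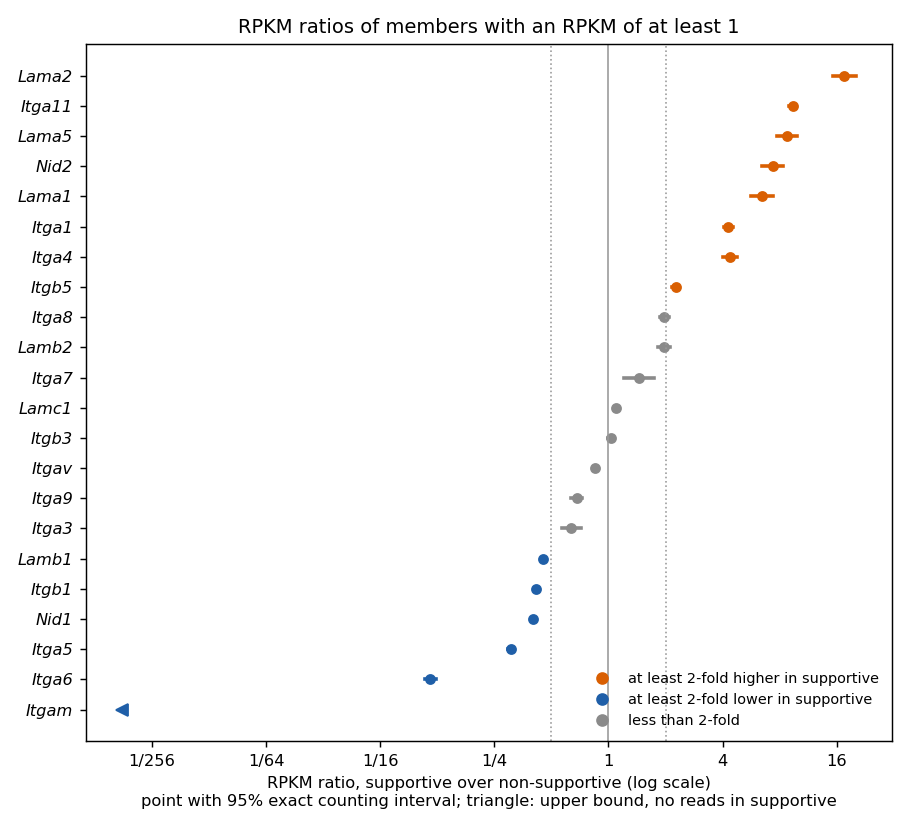
RPKM ratio of supportive over non-supportive ISEMFs for 22 of the 23 expressed genes, on a log axis, with 95% exact counting intervals and dotted lines at 2-fold. Lama2 stands at 17.5, Itga8 and Lamb2 lie just inside the line on the higher side, and the triangle for Itgam is an upper bound, since it had 0 reads in supportive ISEMFs.

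The alpha chains had similar totals in both libraries and a different make-up. Summed over the 12 alpha chains that join Itgb1, the RPKM was 140 in supportive and 120 in non-supportive ISEMFs, while Itgb1 itself was 2.42-fold lower in the former. Itgb1 over the sum of these partners was 1.94 and 5.5, and 2.46 and 6.79 with GENCODE vM1 exon lengths. Within all 18 alpha chains, Itga11 held 43.6% of the summed RPKM in supportive ISEMFs and 5.37% in non-supportive ISEMFs. Itga5 held 10.3% and 38.9%, Itgav 26.7% and 36.5%, Itga1 8.44% and 2.27%, and Itga6 0.70% and 7.02%. Itga11 led the alpha chains in supportive ISEMFs on the per-length scale. The order of Itga5 and Itgav in non-supportive ISEMFs rested on the gene models, since GENCODE vM1 exon lengths gave them 34.4% and 39.0% there. Among the 8 beta chains, Itgb1 held 87.8% and 96.3%, Itgb5 6.82% and 1.36%, and Itgb3 5.06% and 2.22%.

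Of 24 known alpha and beta pairs, 10 had both chains at an RPKM of at least 1 in supportive ISEMFs and 10 in non-supportive ISEMFs, with 8 pairs in both. The pairs of Itgb1 with Itga4 and with Itga7 met this in supportive ISEMFs, and those with Itga3 and Itga6 in non-supportive ISEMFs. This split rested on alpha chains close to the limit, since with GENCODE vM1 exon lengths Itga3 and Itga6 reached 1.28 and 1.38 in supportive ISEMFs, and 12 and 11 pairs met it, 10 of them in both. In most of these pairs the alpha chain had the lower RPKM, since Itgb1 exceeded each alpha chain in both libraries. Transcript levels do not show which pairs were present as protein.

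**Figure D3:**
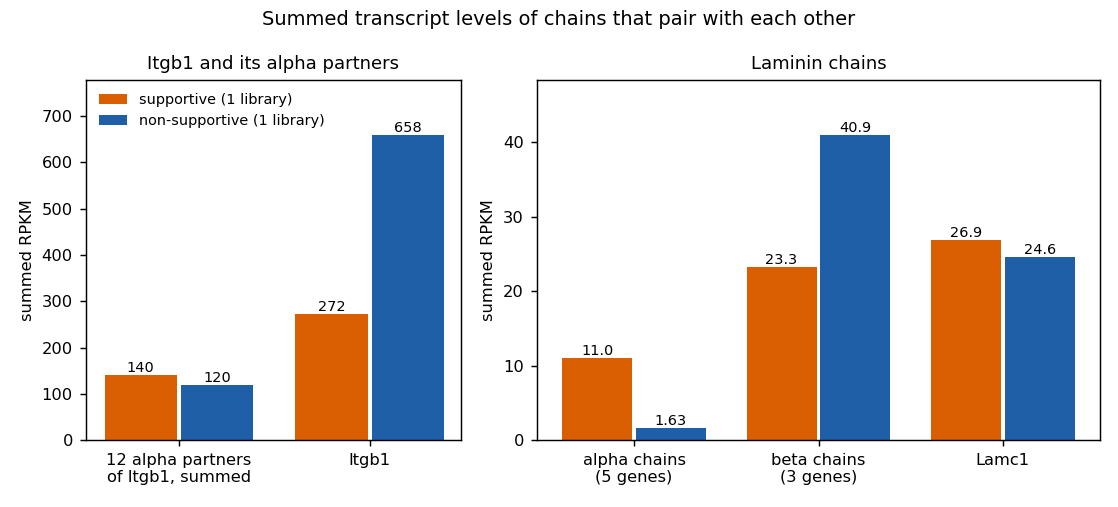
Summed RPKM of Itgb1 and of its 12 alpha partners (left) and of the laminin alpha chains, the laminin beta chains and Lamc1 (right), as bars for the supportive and the non-supportive library. The alpha partners were at 140 and 120 while Itgb1 was at 272 and 658, and the laminin alpha chains were at 11 and 1.63.

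Of the 5 laminin alpha chains, Lama1, Lama2 and Lama5 were higher in supportive ISEMFs, while Lama3 and Lama4 had more reads in non-supportive ISEMFs and stayed below the expression limit. The 3 expressed chains reached that limit in the supportive library alone, so the limit bears on their common direction. Lama2, the alpha chain of muscle and mesenchymal laminin on chr10:26701094-27336748 (mm9, minus strand), had an RPKM of 5.58 in supportive and 0.318 in non-supportive ISEMFs, 17.5-fold higher (15.3 to 20.2). Lama5, the widespread alpha chain of epithelial basement membranes on chr2:179911078-179960564 (mm9, minus strand), had 2.79 and 0.32, a ratio of 8.71 (7.72 to 9.86). Lama1, the alpha chain of the early embryo on chr17:68046605-68171985 (mm9, plus strand), had 2.58 and 0.401, a ratio of 6.44 (5.65 to 7.35). Each of these chains thus passed an RPKM of 1 in supportive ISEMFs and stayed under it in the non-supportive library. Lama4, an alpha chain of blood vessels and mesenchyme, ran against the others with 27 and 556 reads, an RPKM of 0.0269 and 0.570, and was 21.2-fold lower (14.4 to 32.4) though under the expression limit. Lama3, the alpha chain of the epithelial anchoring laminin, had 0 and 15 reads.

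The common laminin beta and gamma chains differed less than the alpha chains. Lamb1, the common beta chain on chr12:31950099-32014509 (mm9, plus strand), had an RPKM of 17.1 and 37.8, 2.21-fold lower in supportive ISEMFs (2.17 to 2.25). Lamb2, the beta chain of the neuromuscular junction and the kidney filter, had 6.17 and 3.14, a ratio of 1.96 (1.83 to 2.11) that sits at the 2-fold line and passed it under 3 other scalings. Lamb1 over Lamb2 was 2.78 in supportive and 12 in non-supportive ISEMFs. Lamc1, the gamma chain of most laminins, had 26.9 and 24.6, a ratio of 1.10 (1.07 to 1.12). Lamb3, an epithelial beta chain, and Lamc3 were close to absent, with 8 and 1 reads for Lamb3 and 2 and 3 reads for Lamc3.

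Set against each other, the summed transcripts of the laminin chains were closer to balance in supportive ISEMFs. Such sums do not show which trimers were present as protein. The alpha chains summed to an RPKM of 11 and 1.63, a 6.74-fold difference, and the beta chains to 23.3 and 40.9, beside 26.9 and 24.6 for Lamc1. Beta over alpha chains was 2.12 in supportive and 25.1 in non-supportive ISEMFs, and Lamc1 over alpha chains was 2.45 and 15.1. With GENCODE vM1 exon lengths these were 2.39 and 28.6, and 2.85 and 17.0. Within the alpha chains, Lama2 held 50.8% and 19.5%, Lama5 25.4% and 19.7%, Lama1 23.5% and 24.6%, and Lama4 0.245% and 35.0%. Lama2 thus led in supportive ISEMFs and Lama4 in non-supportive ISEMFs, where the whole class was at a low level. Lamb1 held 73.5% and 92.3% of the beta chains.

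**Figure D4:**
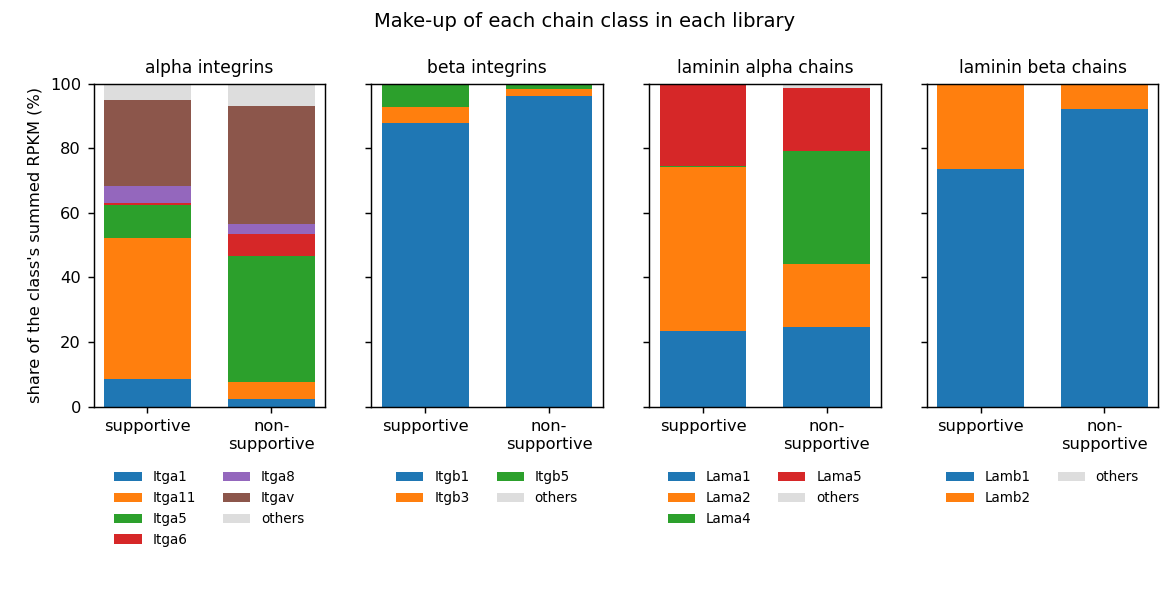
Share of the summed RPKM of each chain class held by each gene, in %, as stacked bars for the supportive and the non-supportive library, with the classes in separate panels. Itga11 holds 43.6% and 5.37% of the alpha integrins, and Lama4 holds 0.245% and 35.0% of the laminin alpha chains.

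The nidogens stood on opposite sides. Nid1, the main nidogen of most tissues on chr13:13529869-13604542 (mm9, plus strand), had an RPKM of 389 in supportive and 975 in non-supportive ISEMFs, 2.51-fold lower (2.49 to 2.52). It ranked 23 and 4 among protein-coding genes and took 39.9% and 50.8% of the reads of all 39 genes. Nid2, the related nidogen on chr14:20570479-20631009 (mm9, plus strand), had 6.11 and 0.831, 7.34-fold higher (6.48 to 8.34). An opposite-strand gene, 2700060E02Rik, shares 7.90% of the Nid2 exon bases. The authors left out reads not assigned to 1 gene alone, so reads on shared bases would be missing from the Nid2 count. Nid1 over Nid2 was 63.7 and 1173. Nid1 over Lamc1, the laminin chain it binds, was 14.5 in supportive and 39.7 in non-supportive ISEMFs.

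The other genes of matrix adhesion were read from 5 lists, and 27 of their 72 expressed genes differed by at least 2-fold, 16 higher and 11 lower in supportive ISEMFs. That is 37.5%, between the 18.2% of all expressed protein-coding genes and the 65.2% of the integrin, laminin and nidogen genes. The counts are descriptions and were not tested.

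Among laminin receptors other than integrins, more genes passed the 2-fold line on the higher side than on the lower. All 18 were expressed, with 7 higher, 1 lower and a median log2 ratio of 0.28. The share at least 2-fold apart was 44.4%, beside 18.2% of all expressed protein-coding genes. Dag1, which encodes dystroglycan, the receptor that links laminin to the cytoskeleton, had an RPKM of 33.0 and 13.9. The other higher genes included Sspn (sarcospan) at 16.3 and 4.32, Sgcd at 4.50 and 1.14, Sgce at 24.6 and 7.30, Sgcb at 6.92 and 3.29 and Sntb1 (a syntrophin) at 1.5 and 0.173. Bcam, a receptor for laminins with the Lama5 chain, had 1.03 and 0.203. Dmd (dystrophin) was lower, at 2.31 and 7.28. The other 10 genes did not pass 2-fold, among them Utrn (utrophin), Dtna and Sntb2, with ratios of 1.49, 1.10 and 1.34.

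Most expressed partners of laminin in the basement membrane stayed within 2-fold. Of 23 genes, 13 were expressed, with 3 higher, 2 lower and a median log2 ratio of 0.09. The share at least 2-fold apart was 38.5%, beside 18.2% of all expressed protein-coding genes. The collagen IV chains Col4a1 and Col4a2 had ratios of 1.10 and 1.18, and perlecan (Hspg2) had 1.10. The higher genes were Smoc1, at 18.6 and 0.654, the heparan sulfate proteoglycan Agrn (agrin), which binds laminins and dystroglycan, at 8.64 and 1.07, and Col18a1 at 1.64 and 0.178. The lower genes were Smoc2, at 3.62 and 18.3, and Tinagl1 at 1.23 and 3.22, so Smoc1 and Smoc2 differed in opposite directions.

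Among other integrin ligands, 12 of 17 genes were expressed, with 4 higher, 2 lower and a median log2 ratio of 0.58. The share at least 2-fold apart was 50%, beside 18.2% of all expressed protein-coding genes. Fbln5 (fibulin 5), an elastic fiber protein that binds integrins, had the largest ratio, with an RPKM of 141 and 3.59. Fbn1 (fibrillin), Tgfb3 and Postn (periostin) were also higher, at 113 and 37.9, 91.8 and 39.6, and 85.1 and 41.6. Spp1 (osteopontin) and Tnc (tenascin C), ligands of Itga9 and of Itgav, were lower, at 1.06 and 28.9, and 21.1 and 236. Fibronectin itself, Fn1, the ligand of Itga5, had 1087 and 850, a ratio of 1.28, so the ligand and its receptor chain lay on opposite sides of 1.

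The cytoplasmic adaptors and signaling proteins of integrin adhesion were mostly within 2-fold. Of 27 genes, 22 were expressed, with 2 higher, 4 lower and a median log2 ratio of -0.50. The share at least 2-fold apart was 27.3%, beside 18.2% of all expressed protein-coding genes. The higher genes were Nedd9, a scaffold protein, at 13.1 and 2.44, and Tln2 (talin), at 10.1 and 2.49. Fermt2, the kindlin of mesenchymal cells, was lower, at 44.0 and 94.2, as were Parvb at 0.386 and 2.51, Bcar1 at 4.38 and 12.7, and Src at 0.509 and 1.43. Tln1, the common talin, had 11.9 and 16.3, a ratio of 0.730. Of 8 membrane partners of integrins, 7 were expressed, 0 were higher and 2 were lower (28.6% of the 7), with a median log2 ratio of -0.54. These were Cd151, a tetraspanin that binds laminin-binding integrins, at 14.0 and 35.2, and Plaur, the urokinase receptor, at 5.29 and 20.3.

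**Figure D5:**
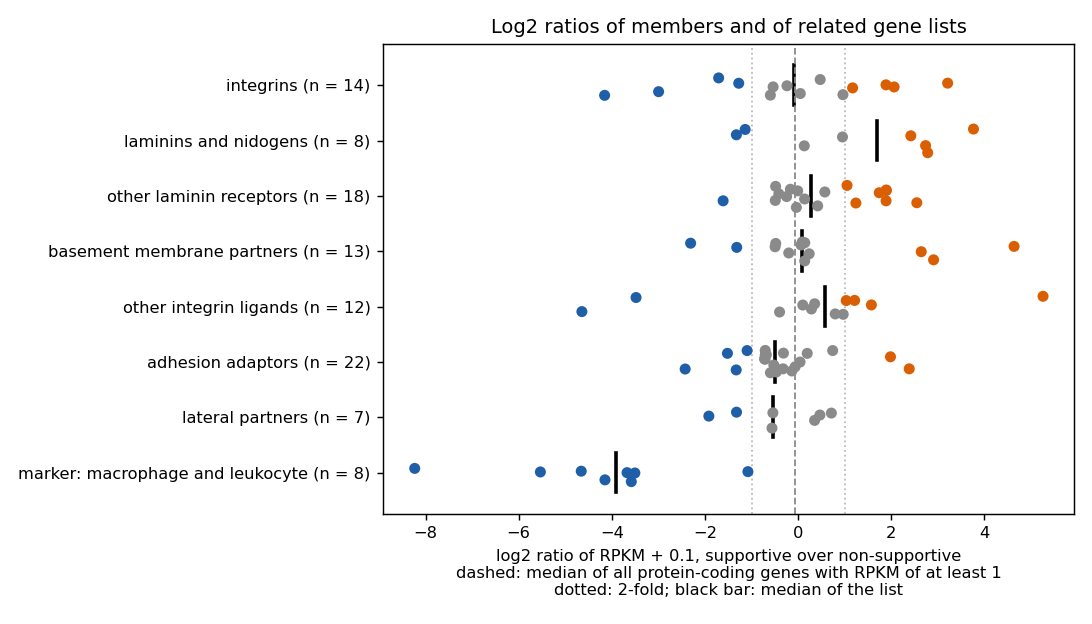
Log2 ratio of RPKM + 0.1, supportive over non-supportive, for the expressed genes of each list, as 1 point per gene with the median of the points as a black bar, the median of all expressed protein-coding genes as a dashed line and 2-fold as dotted lines (vertical scatter within a row only separates the points). The 14 integrins and 8 of the laminins and nidogens are drawn and spread to both sides, whereas all 8 macrophage and leukocyte markers lie on the lower side. Of these markers only Lyz2 and Cd53 reached an RPKM of 1 in both libraries.

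Gene models bear on these levels. All 39 genes were on the same chromosome in GENCODE vM1, where 8 had the same exon length and 31 were shorter than in the table, by a factor of up to 1.58 (Itga4). For the same reads a shorter model raises a gene's RPKM in both libraries by the same factor, which touches the shares, the sums and which genes reach an RPKM of 1. With the GENCODE vM1 lengths 24 genes were expressed and 16 differed by 2-fold, Itgb2 being the addition, while the reads that a shorter model would collect were not tested. There were 9 genes that share exon bases with another gene, such as Itga4, which shares 8.04% with Cerkl on the opposite strand.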

How the data were processed

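RNA sequencing of 1 library of supportive and 1 library of non-supportive ISEMFs was analysed. The authors prepared unstranded libraries with the TruSeq RNA kit and aligned single-end reads to mm9 with TopHat2 2.0.4. They kept unique hits, counted them per Ensembl gene with HTSeq 0.5.4p3 and left out reads not assigned to 1 gene alone. The Ensembl release is not given in the sources used here. The deposited counts are raw whole reads of each gene. The deposited RPKM values are those counts divided by exon length and library size (71463423 and 69449374 reads, as computed from both columns). The table's own log2 ratios and DESeq p-values, and a shorter table of Wnt pathway genes, were not used.

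From these values, log2 ratios with a pseudocount of 0.1 were counted at 2-fold over the protein-coding genes that reached an RPKM of 1 in either library. Where a library had 0 reads, a fold is a bound at 3 reads. With 1 library per population there was no test and no p-value. Of the 39 members 38 are named, 1 is not reported here, and genes of other lists where they differed by 2-fold or as stated comparisons. Genes named with a smaller difference (Utrn, Dtna, Sntb2, Col4a1, Col4a2, Hspg2, Fn1 and Tln1) were chosen after their values were seen. The members and lists were chosen with earlier results of these data known. The alternatives were other pseudocounts, minimum RPKM values, scalings and thresholds, and shares of reads. Alternatives with GENCODE vM1 exon lengths, with a minimum in both libraries and for the median of all members were added after the data were seen. Calling was also tested on simulated data in which 200 genes were changed. The simulated reads varied by counting error alone, so that test does not bear on differences between replicate cultures. Computations used Python 3.11.15 (pandas 2.3.3, numpy 2.4.6, matplotlib 3.10.9 and scipy 1.17.1) and R 4.3.3, with edgeR 4.0.16 for TMM factors only.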

Additional observations from a re-analysis of the deposited data

How the results depend on the processing

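None of the 23 expressed members changed direction under another pseudocount or scaling. The 15 members at least 2-fold apart numbered 8 at a 4-fold threshold (2 of them lower in supportive ISEMFs), where 603 genes (6.62% of all) passed in place of 1661. A minimum RPKM of 5 left 10, of which 5 were higher, and 837 genes in all, no minimum gave 19 of 39 members and 2639 genes, a minimum RPKM of 1 in both libraries left 7 (3 higher and 4 lower), and the other settings gave 13 to 16 members. The median log2 ratio of the members was 0 without a minimum and 0.25 with totals that leave out mitochondrial genes, the scaling with the largest shift of all genes (0.12). Under other scalings Itga8 reached 1.0 to 1.08 and Lamb2 1.01 to 1.07 on the log2 scale, and with median-of-ratios factors Lamb2 stayed below 1. Itga4 was at 0.98 with a pseudocount of 1. As shares of reads rather than of RPKM, Itga11 held 28.5% and 3.24% of the alpha chains and Itgav, the gene with the longer exons, 43.5% and 54.7%, so Itgav led in both libraries. No paired analysis was possible because each population has 1 library, and no replicate could be left out. Genes with few reads, such as Lamb3 or Itgb6, have intervals too wide to place.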
